A study of Mus musculus with 22 samples.

Results

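Transcripts of 10 Sox genes, Sox2, Sox4, Sox5, Sox6, Sox8, Sox9, Sox11, Sox12, Sox18 and Sox21, were followed in cultured granule cells of the mouse cerebellum. Every probe set that the array annotation gives a single symbol, one of these 10, was taken, which gave 36 of the 45101 probe sets on the array. A probe set is a group of short oligonucleotides read out together as 1 signal. Of the 36 probe sets, 27 were bright enough to be tested, and each of the 10 genes had at least 1 of them.

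RNA came from granule neuron progenitors purified from the cerebella of pups at postnatal day 7 (strain given as C56Bl6/J in the labels and as C57BL/6N in the study's methods) and then cultured, and was read on 22 Affymetrix arrays. The first 2 groups were Chd7 mutant neurons (n = 4) and control neurons labelled wild type (n = 4). In the study the mutants carry floxed Chd7 alleles with Cre expressed under Atoh1, which is active in granule neuron progenitors, and the controls carry the floxed alleles without Cre. The next 2 were neurons given 10 µM ICRF-193, which blocks the catalytic cycle of type II topoisomerases, for 12 h (n = 4) and neurons given its solvent DMSO (n = 4). The last 2 were cultures with Smo2 (n = 3) and without it (n = 3), both labelled as granule neurons. The study used an agonist of Smoothened to keep such cells proliferating, and whether Smo2 stands for it is not stated in the labels. The sex of the pups was not distinguished. Replicates are called biological in the labels.

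SOX proteins bind DNA through an HMG box, which sits in the minor groove and bends the helix, and they are sorted into groups by the likeness of that box. In the nervous system SoxB1 proteins such as Sox2 keep cells in a progenitor state, SoxC proteins (Sox4, Sox11 and Sox12) turn on neuronal genes, and SoxE proteins (Sox8, Sox9 and Sox10) act in glia. SoxD proteins (Sox5 and Sox6) have no activation domain of their own and act beside other factors, and Sox18 belongs to the SoxF group of the vessel wall. Sox4 and Sox11 are known targets of the chromatin remodeller Chd7 in neurogenesis.

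The sequence just upstream of the start is shown for the SoxC genes, of which Sox4 and Sox12 fell with Smo2 while the direction of Sox11 depended on the scaling of the arrays, and for Sox2, which rose in the same comparison. RefSeq's table of promoters (build GRCm38.p6) matched 8 of the 10 genes, all but Sox9 and Sox18. The 250 bases before the annotated start lie at chr13:28953700-28953949 for Sox4, chr12:27342719-27342968 for Sox11 and chr2:152398047-152398296 for Sox12, all on the minus strand, and at chr3:34649745-34649994 on the plus strand for Sox2. Each is written 5′ to 3′ along its gene. Capitals mark E-boxes (CANNTG, the motif bound by Atoh1 and other bHLH factors) and CCAAT boxes (CCAAT, or ATTGG on the other strand).
Sox4: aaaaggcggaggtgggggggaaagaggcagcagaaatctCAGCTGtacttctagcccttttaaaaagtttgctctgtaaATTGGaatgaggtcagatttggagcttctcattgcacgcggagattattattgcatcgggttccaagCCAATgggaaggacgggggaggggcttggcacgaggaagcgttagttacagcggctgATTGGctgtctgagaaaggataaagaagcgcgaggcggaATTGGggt
Sox11: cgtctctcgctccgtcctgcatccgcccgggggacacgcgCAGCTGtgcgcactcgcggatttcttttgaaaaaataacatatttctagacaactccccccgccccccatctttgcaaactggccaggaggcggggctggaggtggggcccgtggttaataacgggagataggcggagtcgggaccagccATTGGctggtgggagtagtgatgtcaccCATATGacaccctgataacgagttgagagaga
Sox12: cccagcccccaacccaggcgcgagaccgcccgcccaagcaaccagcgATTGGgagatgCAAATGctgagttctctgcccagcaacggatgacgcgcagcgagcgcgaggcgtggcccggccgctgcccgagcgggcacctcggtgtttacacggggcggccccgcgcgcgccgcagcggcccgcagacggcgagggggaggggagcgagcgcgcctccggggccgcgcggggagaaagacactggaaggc
Sox2: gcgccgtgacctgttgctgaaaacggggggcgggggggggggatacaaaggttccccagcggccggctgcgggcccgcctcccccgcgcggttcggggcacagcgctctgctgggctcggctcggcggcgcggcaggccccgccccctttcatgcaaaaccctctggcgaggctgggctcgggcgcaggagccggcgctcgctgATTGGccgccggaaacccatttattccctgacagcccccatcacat
The E-box was found once for Sox4, at 2 places for Sox11, once for Sox12 and not in the window of Sox2, and 66.2% of all 32851 promoter windows of this length held one. The CCAAT box was found at 4 places for Sox4 and once each for Sox11, Sox12 and Sox2, against 33.8% of all windows with at least 1. It was added to the search after the sequences had been read. Neither the SOX core motif ACAAT (27.7% of windows) nor the Gli motif GACCACCCA (0.225%) was in these 4 windows. Both strands were searched, no marked match overlaps another, and a match is a string of letters only.

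All values below are log2 signals after quantile normalization over the 22 arrays, means are given ± SD, and differences are on the log2 scale with the standard error (SE) of the fit. Adjusted p-values are from limma, two-sided, with Benjamini-Hochberg adjustment over 22551 probe sets, and "passed" means an adjusted p under 0.05. Levels of different probe sets are not set against each other. Probe sets of the same gene are not independent, so counts of Sox probe sets are not counts of genes. Since signals are no counts, precision rests on how many arrays there are. In bulk RNA, fewer cells of a type and less RNA per cell cannot be told apart. In the Chd7 and ICRF-193 groups, replicates 1 and 2 resembled each other, as did replicates 3 and 4. The dimmer Chd7 probe set averaged 9.47 ± 0.54 in mutant and 11.50 ± 0.23 in control arrays (difference -2.03, adjusted p = 0.00342), while the other had 11.65 ± 0.25 and 11.89 ± 0.13 (-0.25, adjusted p = 0.299). Of 11 markers of the labelled granule lineage on the array 9 were bright enough to be tested, from Atoh1 (7.63 in mutant and 7.66 in control arrays) to Neurod1 (14.81 in mutant and 14.96 in control arrays). The other 2, Gabra6 (6.04 in mutant and 7.03 in control arrays) and Slc17a7 (5.85 in mutant and 6.37 in control arrays), mark mature granule neurons.

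**Figure D1:**
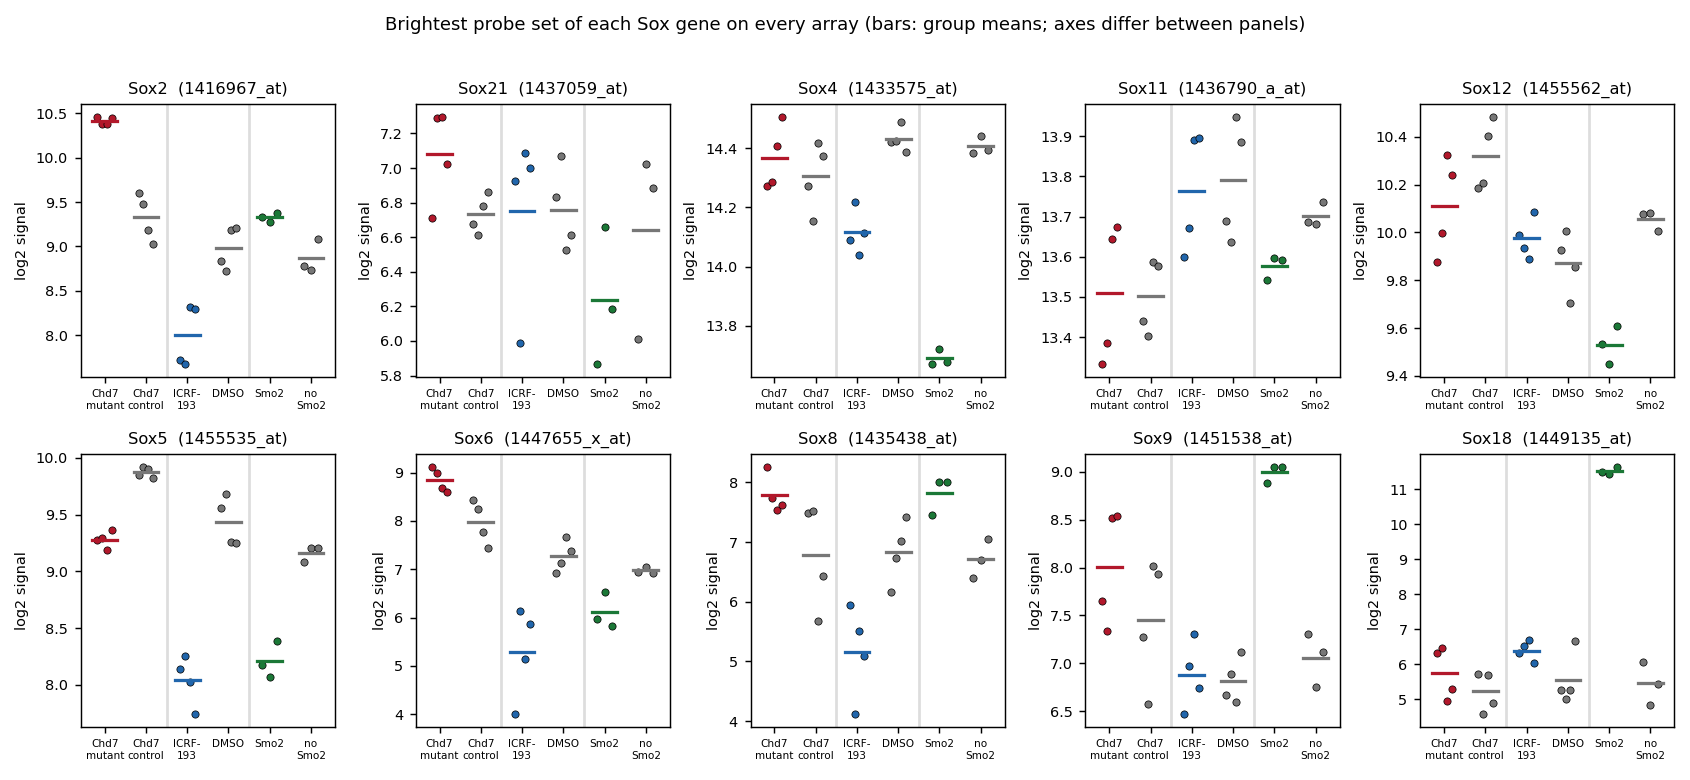
The log2 signal of the brightest probe set of each Sox gene is plotted for every array (points) with the group mean (bar), in panels with their own axes. Sox2 lies between 10.38 and 10.46 in Chd7 mutant arrays, above every control array, and Sox18 lies between 11.42 and 11.64 with Smo2, against 6.06 at most without it.

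The first comparison asked which Sox transcripts depend on Chd7 in granule neurons. Sox2 and Sox6 were higher and Sox5 was lower in mutant than in control neurons, while Sox4, Sox11, Sox12, Sox8, Sox9, Sox18 and Sox21 did not pass. Of the 27 tested Sox probe sets 3 rose, where 3.41% of all probe sets did, and 1 fell, where 3.44% of all did (6.85% in either direction). The median difference was 0.10 for the Sox probe sets and -0.02 for all probe sets. The groups did not overlap for 8 of the 27, against 17.5% of all probe sets. With the replicate number as a block 9 of the 27 passed, 7 higher and 2 lower, against 9.03% of all probe sets. Within replicates 1 and 2 alone 3 passed (4.28% of all probe sets), and within replicates 3 and 4 alone 7 did (7.57% of all). Over all probe sets 770 rose and 775 fell, while with each array centred on its median 551 rose and 944 fell, with the same number of Sox probe sets in each direction.

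Sox2, the SoxB1 factor of neural stem cells and Bergmann glia, had 10.46, 10.38, 10.38 and 10.45 in the 4 mutant arrays, against 9.60, 9.48, 9.19 and 9.03 in the control arrays. The mutant arrays lay together, and the lowest of them was above the highest control array. The difference was 1.09 ± 0.12 (SE), a 2.13-fold rise (adjusted p = 0.00219). Sox21, a SoxB2 factor that opposes SoxB1 activity, averaged 7.08 ± 0.28 in mutant arrays, against 6.73 ± 0.11 in control arrays (adjusted p = 0.177). It passed only without replicate 1 of the mutants (difference 0.47, adjusted p = 0.0465).

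Sox4, a SoxC activator of neuronal genes, was read by 6 tested probe sets, whose differences between mutant and control ran from 0.04 to 0.36. The brightest, 1433575_at, had 14.27, 14.29, 14.41 and 14.51 in mutant arrays, against 14.27, 14.15, 14.42 and 14.37 in control arrays. These groups overlapped almost fully, and the 95% interval of the difference was -0.13 to 0.26. On 1419156_at the mutant arrays had 12.01, 11.84, 12.02 and 12.21, above every control array (11.49, 11.64, 11.81 and 11.73), without passing (0.35, adjusted p = 0.0767). The largest difference was that of 1419157_at (0.36, adjusted p = 0.211). With the replicate number as a block this probe set (adjusted p = 0.0475; range over its alternatives 0.0131 to 0.636) and 1419155_a_at (0.0368; 0.00703 to 0.581) passed. Their groups overlapped, while each mutant array was above the control array of its own number.

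Sox11, the other SoxC gene known as a Chd7 target, showed differences of -0.05 to 0.10 over its 6 tested probe sets (adjusted p 0.653 to 0.98), some of which change sign with the scaling of the arrays. On its brightest probe set, 1436790_a_at, the mutant arrays averaged 13.51 ± 0.17 and the control arrays 13.50 ± 0.09, and the 95% interval of the difference was -0.22 to 0.23. Sox12, the SoxC gene with the weakest activation domain, averaged 10.11 ± 0.21 in mutant and 10.32 ± 0.15 in control arrays on 1455562_at (adjusted p = 0.34).

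The SoxD genes moved in opposite directions. Sox5, which guides the timing of neuronal fates in the cortex, had 9.27, 9.30, 9.18 and 9.37 in mutant arrays on 1455535_at, against 9.85, 9.92, 9.90 and 9.82 in control arrays. No mutant array reached the lowest control array, and the difference was -0.59 ± 0.06 (1.51-fold lower, adjusted p = 0.00177). The other 3 Sox5 probe sets had differences of -0.36 to -0.50 and did not pass. Of these, 1423500_a_at was nearest to the threshold (adjusted p = 0.0513) and passed with the replicate block (0.0332; range over its alternatives 0.0332 to 0.382).

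Sox6, a repressor beside other Sox proteins in the oligodendrocyte lineage and in interneurons, had 8.56, 8.35, 8.39 and 8.18 in mutant arrays on 1427677_a_at, against 7.75, 7.58, 7.19 and 7.14 in control arrays. The difference was 0.95 ± 0.15 (1.93-fold higher, adjusted p = 0.00975). The second probe set, 1434918_at, rose by 0.82 (adjusted p = 0.0169, or 0.0511 without replicate 3 of the controls). The third, 1447655_x_at, had a difference of 0.88 (adjusted p = 0.0536) and passed with the replicate block (0.00948; range over its alternatives 0.00206 to 0.465). On all 3 probe sets every mutant array lay above every control array.

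The SoxE genes were more variable. Sox8, expressed in oligodendrocyte precursors and Bergmann glia, had 8.27, 7.75, 7.54 and 7.62 in mutant arrays, against 7.49, 7.53, 5.68 and 6.44 in control arrays. The difference of 1.01 ± 0.41 did not pass (adjusted p = 0.182), and a pair of control arrays lay just under the lowest mutant array. Sox9, which specifies glia and is kept on in astrocytes and Bergmann glia, had 7.65, 7.34, 8.52 and 8.54 in mutant arrays on 1451538_at, against 7.28, 6.57, 8.02 and 7.93 in control arrays. Replicates 3 and 4 were brighter than replicates 1 and 2 in both groups, and the difference of 0.56 passed with the replicate block (0.0208) and not without it (0.433; range over its alternatives 0.0208 to 0.749).

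Markers of glia were read on the same arrays. Among 11 tested markers of Bergmann glia and astrocytes 1 passed (Gja1, a gap junction protein, 0.86, adjusted p = 0.0159), with a median difference of 0.72, and the log2 of the mean signal of the list ran from 10.13 to 11.78 in mutant and from 9.86 to 10.87 in control arrays, which overlap (exact permutation test, two-sided, p = 0.286). Among 7 tested markers of the oligodendrocyte lineage 1 passed (Pdgfra, the receptor of precursor cells, 1.02, adjusted p = 0.028), with a median difference of 1.11. Without adjustment, limma gave 2 of the 11 astrocyte markers higher at p under 0.05 and 0 lower. Of the 7 oligodendrocyte markers it gave 5 higher and 0 lower. The level of that list was 11.08 to 11.55 in mutant and 9.43 to 10.76 in control arrays (exact permutation test, two-sided, n = 4 each, p = 0.0286, the smallest that 4 against 4 arrays allow, and 0.114 adjusted over 16 measures). Among 6 tested fibroblast and pericyte markers 2 rose (Dcn by 1.496 and Pdgfrb by 0.81), and that list lay at 9.46 to 10.5003 in mutant and 8.54 to 9.56 in control arrays. The part of these cells in the differences of Sox2, Sox6 and Sox8 was not tested. Of 9 tested markers of the granule lineage only Pax6 passed (-0.42, adjusted p = 0.0136), and of 13 tested neuronal genes, SoxC targets among them, only the neurofilament gene Nefm did (-0.57). Without adjustment, 5 of the 13 were lower at p under 0.05 and 0 were higher. The unadjusted share of all probe sets was not counted in this comparison. The level of the granule list was 12.93 to 13.09 in mutant and 13.14 to 13.17 in control arrays, and that of the neuronal list was 13.03 to 13.19 in mutant and 13.27 to 13.31 in control arrays. Both lists were lower in every mutant array than in any control array, with the same exact p (0.0286, and 0.114 adjusted) as the oligodendrocyte list.

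The second comparison asked which transcripts respond when type II topoisomerases are blocked. Sox5, Sox6, Sox2 and, by a small margin, Sox4 were lower with ICRF-193 than with DMSO. Of the 27 tested Sox probe sets 8 fell, where 2.77% of all probe sets did, and 0 rose, where 1.98% of all did (4.75% in either direction). The 8 that fell read 4 genes. At an unadjusted p under 0.05, limma gave 15 lower (8.17% of all probe sets) and 1 higher (8.68% of all), and the methods' t-test 15 lower (7.86% of all) and 0 higher (9.06% of all). The median difference was -0.35 for the Sox probe sets and 0.01 for all. The groups did not overlap for 12 of the 27, against 12.4% of all probe sets, and in all 12 the ICRF-193 arrays were the lower ones. The count of 8 became 4 without replicate 1 of DMSO (3.31% of all) and 5 without replicate 3 of DMSO (3.52% of all). It was 4 (3 lower and 1 higher) within replicates 1 and 2 alone (1.31% of all) and 1 within replicates 3 and 4 alone (1.06% of all). With the replicate number as a block it was 8 again, against 6.35% of all probe sets.

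Sox5 was lower on 3 probe sets tested on their own brightness, with differences of -1.06 to -1.40, of which 1432189_a_at (-1.06, adjusted p = 0.0156) did not pass over all 45101 probe sets (0.0567). On 1455535_at the ICRF-193 arrays had 8.14, 8.25, 8.03 and 7.74 and the DMSO arrays had 9.56, 9.68, 9.26 and 9.25. The groups lay far apart, and the difference was -1.40 ± 0.14 (2.63-fold lower, adjusted p = 0.000941). The dimmest, 1440827_x_at (-1.17, adjusted p = 0.015), was bright enough to be tested only through the DMSO arrays, so it had to differ and its pass is no support, although it stands among the 8. Over all 45101 probe sets its adjusted p was 0.0563. Without replicate 1 of DMSO its adjusted p was 0.0501.

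Sox6 fell as well. On 1427677_a_at the ICRF-193 arrays had 4.497, 4.08, 5.15 and 5.92 and the DMSO arrays had 7.21, 7.37, 7.93 and 7.73. The ICRF-193 arrays came close to the floor of 4, so the size of the difference depends on it and no fold is given. It was -2.65 ± 0.37 (adjusted p = 0.00468, and 0.0265 over all 45101 probe sets) and -2.12 on the log2(signal + 16) scale. The fall of 1447655_x_at (-1.98, adjusted p = 0.0378) was lost on leaving out any 1 of 6 arrays, replicates 1, 2, 3 and 4 of DMSO and replicates 3 and 4 of ICRF-193 (adjusted p 0.0514 to 0.102), and on arrays as deposited (0.0727). On this probe set replicate 1 of ICRF-193 lay at the floor of 4. The third probe set, 1434918_at, had a difference of -1.26 (adjusted p = 0.136) and passed with the replicate block (0.0492; range over its alternatives 0.00998 to 0.53).

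Sox5 and Sox6 are very long genes, 954 kb and 570 kb, while the other 8 span 1.8 to 8.45 kb. Among the 134 tested genes longer than 500 kb, taken by their brightest probe set, 56.7% fell and 0.746% rose with ICRF-193. In the Chd7 mutant 29.1% of these long genes fell and 4.48% rose. Of genes up to 100 kb, 1.01% fell and 2.43% rose with ICRF-193, and 2.15% fell and 4.01% rose in the mutant. With Smo2, 71.6% of the long genes fell and 8.21% rose, while 34.7% of genes up to 100 kb fell and 30.3% rose. The brightest Sox5 probe set fell with ICRF-193, in the mutant and with Smo2. That of Sox6, 1447655_x_at, fell with ICRF-193 and with Smo2. Its rise in the mutant did not pass (adjusted p = 0.0536), while the other tested Sox6 probe sets passed there as higher.

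Sox2 had 7.73, 7.67, 8.32 and 8.30 with ICRF-193, against 8.84, 8.72, 9.18 and 9.21 with DMSO. Every ICRF-193 array was below every DMSO array, and the difference was -0.99 ± 0.19 (1.98-fold lower, adjusted p = 0.0232). The call was lost without replicate 1, 3 or 4 of DMSO or replicate 1 or 2 of ICRF-193 (adjusted p 0.0502 to 0.0701), where the difference stayed between -0.87 and -1.03, and on arrays as deposited (0.0516). Sox8 had 5.94, 4.12, 5.51 and 5.09 with ICRF-193, against 6.16, 6.73, 7.01 and 7.43 with DMSO, and its difference of -1.67 ± 0.40 just missed the threshold (adjusted p = 0.0587; 0.0456 without replicate 1 of ICRF-193). Its lowest ICRF-193 array lay near the floor of 4, so the size of the difference depends on it.

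All 6 tested Sox4 probe sets had differences between -0.31 and -0.64, and only the brightest passed. It had 14.09, 14.22, 14.04 and 14.11 with ICRF-193, against 14.42, 14.42, 14.49 and 14.39 with DMSO. The groups stood apart by less than in Sox2, with a difference of -0.31 ± 0.07 (1.24-fold lower, adjusted p = 0.0475). The call ended with the replicate block (0.0801) and without any 1 of the 8 arrays (0.0618 to 0.129), as well as on arrays as deposited (0.123) and with each array centred on its median (0.509). Sox11 differed by -0.06 to 0.14 over its 6 probe sets (adjusted p 0.692 to 0.998), with some signs that turn with the scaling, and Sox12 by 0.10 and -0.09.

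The 2 Sox9 probe sets had differences of 0.06 and 0.02, and Sox21 of -0.01. Among 9 tested partners and targets of SoxE proteins in glia, Nfia (-1.76, adjusted p = 0.000119) and Nfib (-1.15, adjusted p = 0.0019) fell. Nfia averaged 11.51 with ICRF-193 and 13.26 with DMSO, and Nfib 12.74 and 13.89. Both take part in glial fate beside Sox9, and which cells gave their signal here was not tested. Cnp (-0.97), a myelin enzyme, fell as well, and Apcdd1, a Wnt inhibitor, rose by 1.17. The oligodendrocyte list lay between 9.56 and 10.12 with ICRF-193 and between 9.90 and 10.45 with DMSO. Of its 7 tested markers 1 passed, as lower, and at an unadjusted p under 0.05 limma gave 5 lower and 1 higher. Of 11 astrocyte markers 0 passed (at an unadjusted p under 0.05, 2 lower and 0 higher). The part of these cells in the falls of Sox2 and Sox6 was not tested.

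**Figure D2:**
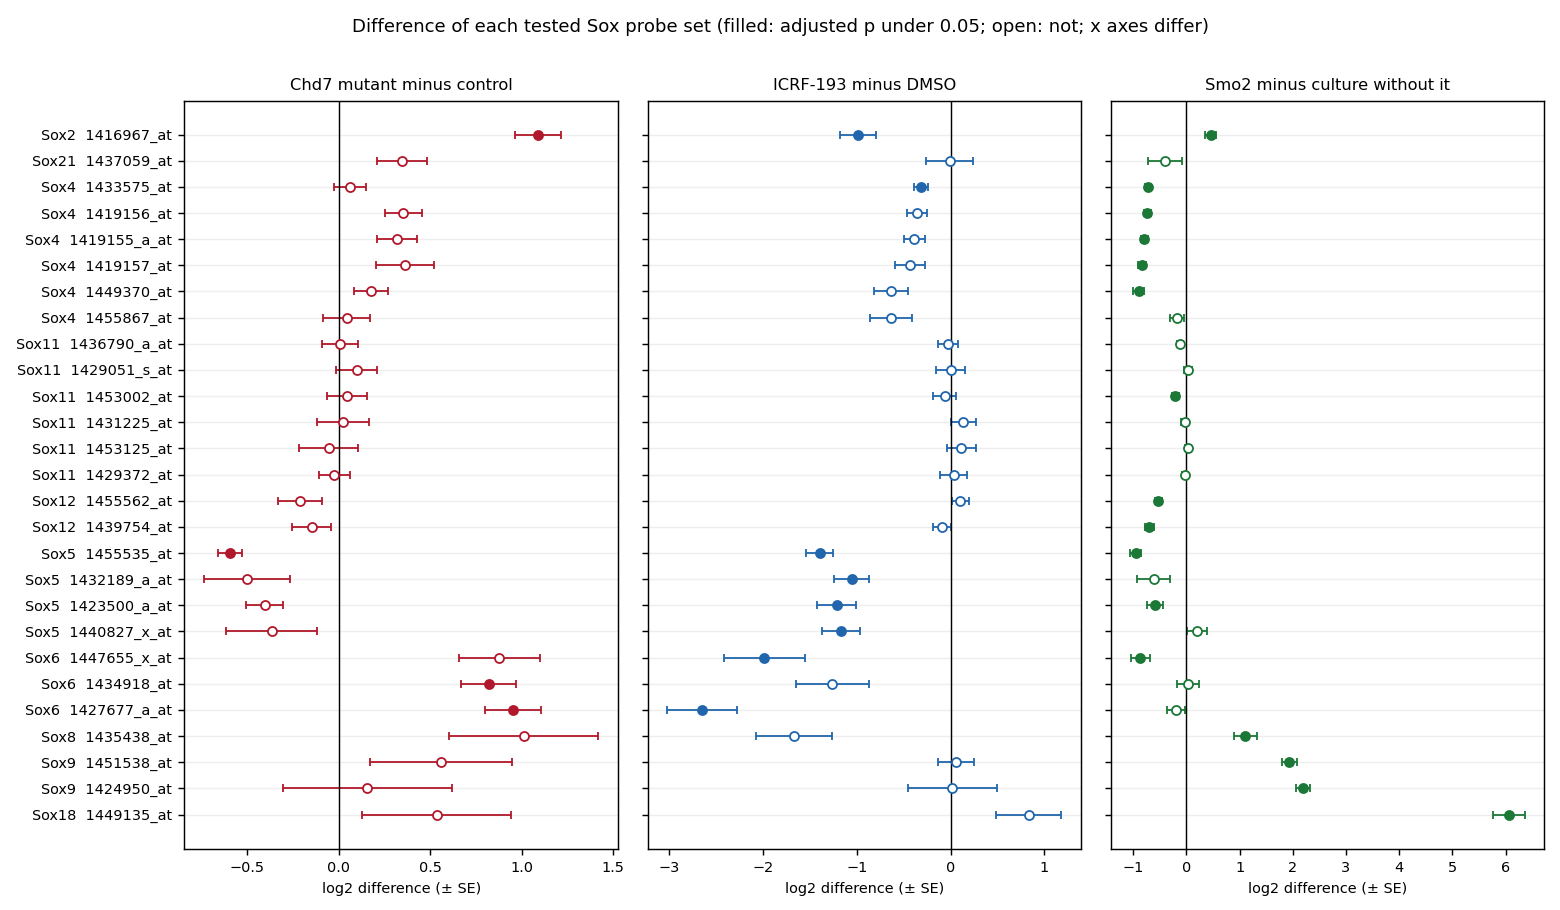
The log2 difference of each of the 27 tested Sox probe sets (point, ± SE) is drawn for the 3 comparisons, filled where the adjusted p is under 0.05. Filled points number 4 in the Chd7 mutant, 8 with ICRF-193, all to the left of 0, and 16 with Smo2.

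The Chd7 and ICRF-193 comparisons share no arrays, so the difference of their effects was tested directly. It passed for 9 of the 27 Sox probe sets, against 4.67% of all probe sets, and in all 9 the effect of the Chd7 mutation was the more positive one. With the replicate number as a block 12 passed, against 7.87% of all. Sox6 differed by 3.60 ± 0.43 on 1427677_a_at (adjusted p = 0.000179), by 2.86 on 1447655_x_at and by 2.08 on 1434918_at. Sox2 differed by 2.07 ± 0.24 (adjusted p = 0.000136) and Sox8 by 2.68 ± 0.61 (adjusted p = 0.0208). The lowest ICRF-193 array lay at or near the floor of 4 for Sox8 and for Sox6 on 1427677_a_at and 1447655_x_at. The sizes of these differences depend on that floor. Sox5 fell in both comparisons on 1455535_at, and its fall was smaller in the mutant by 0.80 ± 0.16 (adjusted p = 0.00867).

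Sox4 passed on 3 of its 6 probe sets in this test, 1419156_at (0.71, adjusted p = 0.0116), 1419155_a_at (0.71, 0.0161) and 1449370_at (0.81, 0.0419). With the replicate number as a block 1433575_at (0.38, 0.0392) and 1419157_at (0.80, 0.0309) passed too, as did Sox5 on 1423500_a_at (0.81, 0.00748). Without the block 1449370_at was lost on leaving out any 1 of 12 of the 16 arrays (0.055 to 0.0861). Sox11 did not pass on any of 6 (differences -0.17 to 0.11, adjusted p 0.78 to 0.946). The 2 comparisons were separate profilings, so what differs between profilings and what differs between treatments cannot be told apart here.

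**Figure D3:**
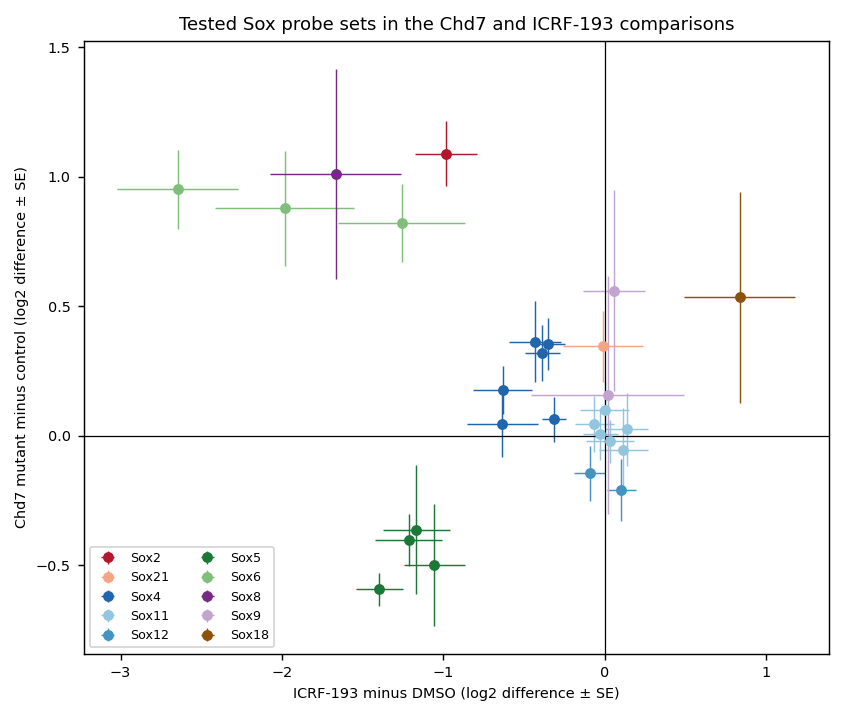
Each tested Sox probe set is placed by its log2 difference with ICRF-193 (x axis) and in the Chd7 mutant (y axis), both ± SE. Sox2, Sox6 and Sox8 lie at the upper left, with positive differences in the mutant and negative ones with ICRF-193 (those of Sox8 did not pass in either comparison). Sox4 lies there too, with smaller differences of 0.04 to 0.36 in the mutant and -0.31 to -0.64 with ICRF-193. Of these only that of the brightest Sox4 probe set with ICRF-193 passed. Sox5 lies at the lower left, and Sox11 and Sox12 lie near 0 on the x axis.

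The third comparison set cultures with Smo2 against cultures without it. All 8 tested hedgehog targets and proliferation genes rose, Ccnd1 by 5.73 and Top2a by 3.09, and of 13 neuronal genes 10 fell, such as Dcx by 1.20, and 1 rose, the SoxC target Tead2, by 1.52. Of all probe sets 26.3% rose and 34.9% fell, and of the 27 Sox probe sets 5 rose and 11 fell, a share (59.3%) near that of all probe sets (61.3%). The groups did not overlap for 18 of the 27, against 68% of all. The median difference of all probe sets was -0.10 here, -0.16 on arrays as deposited and 0.02 with each array centred on its median. With that centring 7457 probe sets rose and 6194 fell, against 5937 and 7877 here, and of the Sox probe sets 9 rose and 10 fell, against 60.5% of all called in either direction.

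Sox18 had 11.48, 11.42 and 11.64 with Smo2, against 6.06, 4.84 and 5.44 without it, and between 4.57 and 6.695 in the other 16 arrays of the series. Every array without Smo2 lay below the mean of 6.44 that a probe set needed to be tested, so no fold is given. The probe set was tested only through the Smo2 arrays and had to differ there, and over all 45101 probe sets, where no such filter acts, the difference was 6.07 (adjusted p = 0.000383). Sox18 is known for blood and lymph vessels. The log2 of the mean signal of 8 endothelial markers was 5.48 to 5.63 with Smo2 and 5.48 to 5.58 without it, and 0 of the 2 tested passed (1 lower at an unadjusted p under 0.05). The other SoxF genes, too dim to be tested, averaged 4.73 (Sox7) and 5.23 (Sox17) with Smo2 and 4.86 and 4.9997 without it. A single probe set reads Sox18 on this array.

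Sox9 had 8.80, 8.97 and 8.88 with Smo2 on 1424950_at, against 6.86, 6.43 and 6.77 without it. The difference was 2.19 ± 0.12 (4.57-fold, adjusted p = 3.81e-05), and 1451538_at rose by 1.94 ± 0.15. Sox8 had 7.46, 8.002 and 8.01 with Smo2, against 6.40, 6.70 and 7.05 without it, a rise of 1.11 ± 0.22 (adjusted p = 0.00526). Both groups stood clear of each other for either gene. The third SoxE gene, Sox10, which marks the oligodendrocyte lineage, went the other way, with 4.91 on average with Smo2 and 7.01 without it (-2.11, adjusted p = 0.0081).

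The log2 of the mean signal of each list of glial markers was lower in every array with Smo2 than in any without it. Bright genes weigh most in this level. The median difference was -0.85 for the tested astrocyte markers and 0.32 for the tested oligodendrocyte markers. Single markers moved in both directions. Of 11 astrocyte markers 8 fell, such as Aqp4 (-2.12) and Gfap (-1.21), and 3 rose, among them Gja1 (1.56). The level of that list was 9.54 to 9.71 with Smo2 and 9.90 to 10.08 without it. Of 7 oligodendrocyte markers 3 rose (Olig2 by 1.19 and Pdgfra by 1.11 the most) and 3 fell, and that list lay at 10.05 to 10.09 with Smo2 and 10.40 to 10.53 without it. The part of glial cells in the rise of Sox8 and Sox9 was not tested. In the list of genes that Sox5, Sox6 and Sox9 control in cartilage 1 of 7 was bright enough to be tested, Col9a1, a collagen gene, and it rose by 2.56 (adjusted p = 4.32e-06).

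Sox2 had 9.33, 9.28 and 9.37 with Smo2, against 8.78, 8.73 and 9.09 without it. The groups were close but apart, and the difference was 0.46 ± 0.11 (1.37-fold, adjusted p = 0.0103). Of the other SoxB1 genes, Sox3 rose by 0.40 (adjusted p = 0.0469) and Sox1, too dim to be tested, averaged 7.96 with Smo2 and 5.03 without it (adjusted p = 0.00104 over all 45101 probe sets). Of 10 tested progenitor genes and SoxB1 partners 6 rose, with Notch1 (1.45) and Hes1 (1.32) foremost, and 2 fell. The median difference of the 10 tested genes was 0.73. The level of that list, in which bright genes weigh most, was lower with Smo2. It was 10.34 to 10.39, against 10.60 to 10.68 without Smo2.

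The SoxC genes parted from each other. The brightest Sox4 probe set had 13.67, 13.72 and 13.68 with Smo2, against 14.38, 14.44 and 14.39 without it. Arrays of the same group lay close together, and the difference was -0.72 ± 0.06 (1.64-fold lower, adjusted p = 0.000111). Sox4 passed on 5 of 6 probe sets, with differences of -0.72 to -0.90, and the dimmest, 1455867_at, did not (-0.18, adjusted p = 0.292). Sox12 had 9.53, 9.45 and 9.61 with Smo2 on 1455562_at, against 10.08, 10.08 and 10.00 without it (-0.53 ± 0.07, adjusted p = 0.000835), and fell by 0.69 on 1439754_at.

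Sox11 had differences of -0.21 to 0.03 over its 6 probe sets, of which 1 passed, 1453002_at (-0.21, adjusted p = 0.0258). The call ended without any 1 of 4 arrays, replicates 1 and 2 of the cultures without Smo2 and replicates 1 and 3 of those with it (0.0531 to 0.0765), and on arrays as deposited (-0.12, adjusted p = 0.143). With each array centred on its median the same probe set had a difference of 0.06 and 4 other Sox11 probe sets rose by 0.21 to 0.29 (adjusted p 0.0104 to 0.0298), so that the direction of Sox11 depends on the scaling. Sox4 and Sox12 fell on the same 7 probe sets under each of the 3 scalings.

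**Figure D4:**
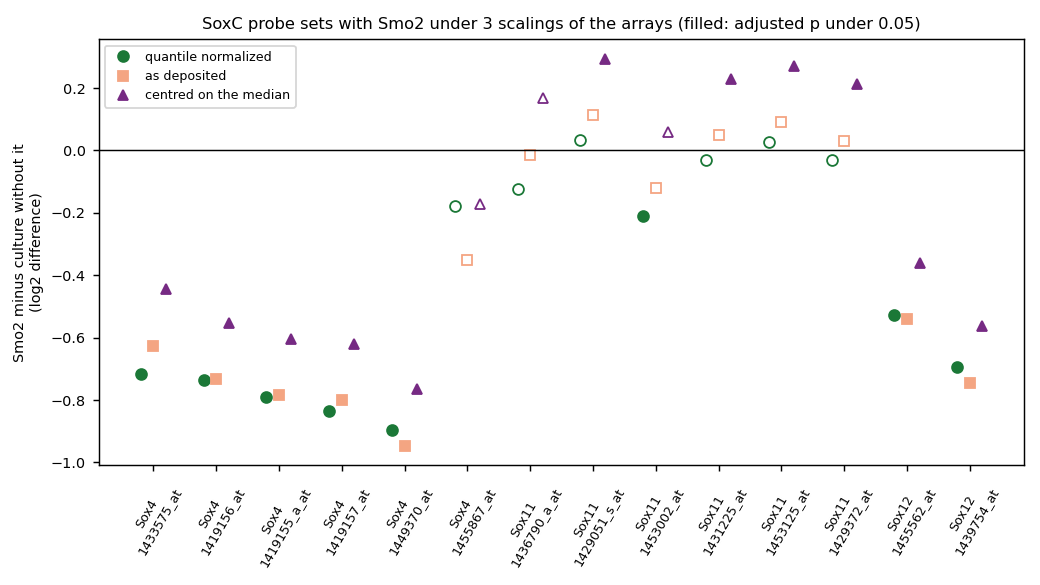
The log2 difference between cultures with and without Smo2 is shown for the 14 tested SoxC probe sets under 3 scalings of the arrays, filled where the adjusted p is under 0.05. The Sox11 probe sets lie between -0.21 and 0.29 and cross 0 with the scaling, while those of Sox4 and Sox12 lie below 0 in all 3.

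Among the SoxD genes, Sox5 had 8.18, 8.07 and 8.39 with Smo2 on 1455535_at, against 9.08, 9.20 and 9.21 without it (-0.95 ± 0.10, 1.94-fold lower, adjusted p = 0.000349). It also fell on 1423500_a_at (-0.59, adjusted p = 0.0164), a call lost without replicate 2 of the cultures without Smo2 or replicate 1 or 2 of those with it (0.0503 to 0.0536). The other 2 tested Sox5 probe sets did not pass, with differences of -0.62 (1432189_a_at, adjusted p = 0.134) and 0.21 (1440827_x_at, 0.371). Sox6 fell on 1447655_x_at (-0.87, adjusted p = 0.00664), while its other 2 tested probe sets had differences of 0.03 and -0.20 and did not pass. The label of the first, ending in x_at, marks a probe set that may bind transcripts of other genes. Sox21 did not pass (-0.40, adjusted p = 0.315).

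Over the 6 groups, the Sox2 signal was highest in Chd7 mutant neurons (10.42 ± 0.04) and lowest with ICRF-193 (8.003 ± 0.35). The other 4 groups lay between 8.87 and 9.33, and those with DMSO and without Smo2 (8.99 ± 0.25 and 8.87 ± 0.19) overlapped. Sox9 on 1451538_at was highest with Smo2 (8.996 ± 0.098) and lowest with DMSO (6.82 ± 0.24) and ICRF-193 (6.87 ± 0.36), which did not differ beyond their spread. The comparisons were profiled separately, so profiling and treatment cannot be told apart in these rankings. Probe sets of a gene followed each other to different degrees over the 22 arrays, with a Pearson r of 0.83 to 0.91 for Sox6, 0.63 to 0.97 for Sox11 and -0.14 to 0.90 for Sox4, where the dimmest probe set departed from the rest.

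The genes whose signal ran most alike with that of a Sox gene over the 22 arrays are given as a description, since the arrays share profilings and treatments. For Sox4 they were Kcnd3, a potassium channel (r = 0.96), Syn3, a synaptic vesicle protein (r = 0.95), and Chl1, an adhesion molecule (r = 0.94). For Sox2 they were Cryab, a small heat shock protein (r = 0.93), S100a16 (r = 0.92) and Shroom2 (r = 0.91). For Sox9 they were Pabpc4, Metrn, a secreted glial factor (both r = 0.92), and Pabpc1 (r = 0.91). For Sox11 they were Zfp760, Satb1, a chromatin organiser (both r = 0.91), and Cracd (r = 0.91).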

How the data were processed

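RNA of 22 cultures was hybridised to Affymetrix Mouse Genome arrays. The deposited values were linear signal intensities for 45101 probe sets, each array scaled by the authors to a common trimmed mean; the software behind the summarised signals was not given in the sources used here. Intensities were floored at 16, taken to log2 and quantile-normalized over the 22 arrays. Probe sets whose mean over all arrays reached the median of such means (6.44) were tested, 22551 in all. Symbols came from GEO's platform annotation, in which 932 probe sets have several symbols and 9211 none. Each comparison was fitted to its own 2 groups by limma (version 3.58.1, under R 4.3.3), p-values being two-sided and adjusted by Benjamini-Hochberg, with calls at an adjusted p under 0.05. The difference of the Chd7 and ICRF-193 effects was fitted over 16 arrays. The pipeline was tested on simulated data. Plots came from matplotlib (3.10.9) under Python 3.11.15.

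Before normalization the array medians ran from 6.33 to 6.81 on the log2 scale, 16.2% to 20.7% of values lay at the floor, and no 2 of the arrays were identical (0 of 231 pairs). The signals give no counts or depth. Deviations from the group means of same-numbered arrays correlated at 0.30 to 0.35 (Chd7) and 0.28 to 0.41 (ICRF-193). Arrays of the other number in the same set (replicates 1 and 2, or 3 and 4) gave 0.27 to 0.36 and 0.32 to 0.34. Arrays of the other set gave -0.37 to -0.28 and -0.42 to -0.24. The arrays thus grouped by set, and pairing by number within a set was not borne out. Fits with the replicate number as a block are given beside the main fit, which had no block. For Smo2 same-numbered arrays correlated at 0.02 to 0.04, and the numbers were not taken to pair. What the replicate numbers stand for is not given, so the p-values measure the spread between these cultures.

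All Sox probe sets were described, with Chd7, up to 4 called genes of largest change per list, and the 3 genes most like Sox4, Sox11, Sox2 and Sox9. The members and lists were chosen with earlier results of these data known. Alternatives changed the scaling, floor, filter, fit, test, threshold and arrays.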

Additional observations from a re-analysis of the deposited data

Results flagged for a closer look

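In 4 of 108 groups of 4 arrays (3.7%) a single array stood apart from the other 3 by Dixon's criterion, which chance alone meets in about 5% of groups. Sox21 on 1437059_at had 5.99 in replicate 2 of ICRF-193, against 6.93 to 7.09 in the other ICRF-193 arrays. Sox12 on 1439754_at had 8.64 in replicate 2 of DMSO, against 8.94 to 9.001 in the other DMSO arrays. Sox5 on 1440827_x_at had 7.34 in replicate 1 of the Chd7 controls, against 6.503 to 6.63 in the other controls. Sox18 had 6.66 in replicate 4 of DMSO, against 4.998 to 5.27 in the other DMSO arrays, and without it the difference between ICRF-193 and DMSO was 1.21 (limma adjusted p = 0.00965), against 0.84 (0.269) with it.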

How the results depend on the processing

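Array number limits the precision, and the pairs of replicates that resembled each other limit it further in the Chd7 and ICRF-193 comparisons. When set means stood in for samples, limma called 0 Sox probe sets and 0 of all probe sets in both. Causes of the changes below were not tested. Leaving out 1 array at a time gave 3 to 5 called Sox probe sets (4 with all) for Chd7, 4 to 7 (8) for ICRF-193, 14 to 16 (16) for Smo2 and 8 to 10 (9) for the difference of effects.

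For Chd7 the count was 2 with a stricter filter (mean of at least 8), 9 with the replicate block, 11 with the set as a block, 8 by the methods' t-test unadjusted and 7 within replicates 3 and 4. For ICRF-193 it was 5 on arrays as deposited, 4 without a filter, 3 with the stricter filter, 5 with the brightest probe set per gene, 14 with all 22 arrays in 1 fit, 15 by the methods' t-test unadjusted, 4 by that test after Benjamini-Hochberg, 2 at an adjusted p under 0.01, and 4 and 1 within replicates 1 and 2 and within 3 and 4. For Smo2 it was 10 with the stricter filter and 8 with the brightest probe set per gene. The replicate number as a block gave 15, although same-numbered arrays hardly correlated for Smo2. The difference of effects had 12 with the replicate block and 7 to 10 under other settings. Counts of called Sox probe sets in this section stand without the share of all probe sets, except where it is given here or above. They show only how the number of calls varied.

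The following differences changed sign. For Chd7 with median centring, Sox11 had -0.040 (1436790_a_at), -0.044 (1453002_at) and -0.065 (1431225_at). Within replicates 1 and 2, Sox11 had -0.063 (1436790_a_at), -0.10 (1429051_s_at), -0.045 (1453002_at) and -0.078 (1431225_at) and Sox9 had -0.28 (1424950_at). Within replicates 3 and 4, Sox11 had 0.019 (1429372_at) and Sox18 had -0.17 (1449135_at). For ICRF-193 on arrays as deposited, Sox21 had 0.040 (1437059_at) and Sox11 had -0.00094 (1429051_s_at). With median centring, Sox11 had -0.053 (1429051_s_at) and -0.043 (1429372_at). With a floor of 32, Sox9 had -0.23 (1424950_at). Within replicates 1 and 2, Sox11 had -0.11 (1429051_s_at), Sox12 had -0.0043 (1455562_at) and 0.028 (1439754_at) and Sox9 had -0.059 (1451538_at). Within replicates 3 and 4, Sox21 had 0.47 (1437059_at) and Sox9 had -0.56 (1424950_at). For Smo2 on arrays as deposited, Sox11 had 0.050 (1431225_at) and 0.031 (1429372_at) and Sox6 had -0.14 (1434918_at). With median centring, Sox11 had 0.17 (1436790_a_at), 0.060 (1453002_at), 0.23 (1431225_at) and 0.21 (1429372_at).

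Leaving out 1 array at a time, the differences that changed sign ran as follows. For Chd7, Sox11 had -0.049 to 0.065 (1436790_a_at), -0.054 to 0.11 (1431225_at), -0.016 to 0.11 (1453002_at), -0.13 to 0.069 (1453125_at) and -0.070 to 0.020 (1429372_at), Sox4 had -0.052 to 0.12 (1455867_at) and Sox9 had -0.16 to 0.55 (1424950_at). For ICRF-193, Sox21 had -0.12 to 0.24 (1437059_at), Sox11 had -0.093 to 0.13 (1429051_s_at), -0.040 to 0.13 (1429372_at), -0.077 to 0.029 (1436790_a_at) and -0.12 to 0.024 (1453002_at) and Sox9 had -0.51 to 0.31 (1424950_at) and -0.090 to 0.19 (1451538_at). For Smo2, Sox11 had -0.035 to 0.071 (1429051_s_at), -0.057 to 0.0071 (1429372_at) and -0.060 to 0.0019 (1431225_at) and Sox6 had -0.16 to 0.14 (1434918_at). In the difference of effects, Sox11 had -0.022 to 0.092 (1436790_a_at), -0.15 to 0.018 (1429372_at) and -0.034 to 0.19 (1429051_s_at), Sox12 had -0.16 to 0.030 (1439754_at) and Sox9 had -0.17 to 0.67 (1424950_at).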

Other observations

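Of the 9 Sox probe sets too dim to be tested, 3 read Sox5, 2 read Sox4 and 1 each read Sox21, Sox12, Sox6 and Sox9. A dim Sox5 probe set, 1452511_at, averaged 5.67 ± 0.51 in Chd7 mutant and 6.25 ± 0.23 in control arrays, and 5.28 ± 1.05 with ICRF-193 and 6.64 ± 0.11 with DMSO (SD, n = 4 each).

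Chd7 itself was lower with ICRF-193 than with DMSO (-1.28, limma adjusted p = 0.0055, and -1.35, 0.000893, on its 2 probe sets) and lower with Smo2 than without it (-0.72, 0.000105, and -0.67, 0.000204). Among hedgehog targets and proliferation genes Ccnd1, a cyclin of the early cell cycle, was higher in Chd7 mutant neurons (1.05, adjusted p = 0.00149), the only 1 of 8 tested that passed, and Mycn, a transcription factor of progenitors, was higher with ICRF-193 (0.71). Of the tested microglia markers 5 of 5 fell with Smo2, while 0 of 5 passed in the other comparisons (limma, at an unadjusted p under 0.05, 2 lower in the Chd7 mutant and 0 with ICRF-193).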
